A study of Mus musculus with 6 samples.

Results

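The 41 genes described here encode the machinery that opens replication origins and copies DNA at the fork. They were named in a list chosen with earlier results of these data known, so the counts below do not rest on an independent choice. Each symbol was matched through the GENCODE annotation of the mouse build GRCm38 to 1 row of the deposited tables, and all 41 were found among 52550 Ensembl genes. All 41 also passed the filter on low counts, as did 14386 genes in all. The cells were neonatal cardiomyocytes isolated from mouse hearts on postnatal day 1, enriched by immunomagnetic sorting and grown for 48 hours with 5% horse serum and 10% fetal bovine serum, then for 24 hours without serum. The control group (3 libraries, genotype given as ctrl) and the GR-cKO group (3 libraries) shared this culture. GR is the glucocorticoid receptor, encoded by Nr3c1, and cKO a conditional knockout. The labels name no Cre driver, deleted exon, strain, sex or alleles of the controls, and they call the libraries biological replicates without saying whether animals or hearts were pooled. The p-values below thus cover only how far these 6 libraries spread, and some of that may be technical.

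A cell copies its genome once per division. In G1 the origin recognition complex, with Cdc6 and Cdt1, loads the ring-shaped MCM2-7 helicase onto origins, a step called licensing. In S phase the kinase Cdc7 with its activator Dbf4, and cyclin-dependent kinases, turn the loaded ring into an active helicase by adding Cdc45 and the GINS complex. Polymerase alpha-primase then starts each strand, polymerases epsilon and delta extend it on the Pcna clamp, and Fen1 and Lig1 join the lagging-strand fragments. Most of these genes are transcribed in step with the cell cycle under E2F factors. Mouse cardiomyocytes are known to pass from dividing to largely non-dividing during the days after birth, so the RNA of these genes is commonly read as a sign of cell-cycle activity.

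The libraries held 19371508 to 22583596 gene counts, and the TMM factors that scaled them lay between 0.980 and 1.024. Nr3c1 checked the labels: its 3' tag stood at 68.2, 73.9 and 72.4 CPM (counts scaled to library size) in the control libraries and 46.2, 42.8 and 44.1 CPM in the GR-cKO libraries (edgeR log2 fold change -0.69 ± 0.09, SE). With the deleted exon unknown, the remaining tags do not measure remaining receptor. Xist, the RNA of the inactive X chromosome, was at 271 to 293 CPM in the controls and at 0 to 0.0996 CPM in GR-cKO, so that sex and genotype cannot be told apart in any result below. Of 10 cardiomyocyte markers all were present; 8 were higher and 1, Pln, was lower in GR-cKO, and their summed level was 36559 to 37609 CPM in the controls against 44673 to 45374 CPM in GR-cKO. Summed markers of fibroblasts (3720 to 3919 against 4824 to 4949 CPM; 5 higher, 1 lower of 10), endothelium (1083 to 1125 against 1330 to 1445; 8 higher, 1 lower of 10) and smooth muscle and pericytes (3725 to 3837 against 4413 to 4636; 5 higher of 8) were also higher. Leukocyte markers were scarce (13.5 to 17.2 against 33.8 to 54.0 CPM; 2 higher of 5 tested, with Cd3e and Cd79a at 0 everywhere), and summed epicardial markers were lower (96.7 to 99.9 against 61.1 to 69.8 CPM; 3 lower, 1 higher of 6). Erythroid (1.31 to 3.02 against 3.52 to 5.00 CPM; none called of 2 tested) and neural markers (12.7 to 16 against 8.22 to 12.8 CPM; none called of 2 tested) were low in both groups. The part of cell composition in the results below was not tested, and in bulk RNA fewer dividing cells and less RNA per cell cannot be told apart.

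Replication genes were lower in GR-cKO, in this list chosen with earlier results of these data known. Of the 41 genes 33 fell and none rose past an adjusted p of 0.05 (edgeR quasi-likelihood test, Benjamini-Hochberg over all genes tested), where 7.19% of all tested genes fell and 7.63% rose. At an unadjusted p below 0.05 none were higher and 37 were lower, but the share of all tested genes at that level was not counted. Limma-trend and DESeq2 each called 32 lower and none higher. The fitted log2 fold change was below 0 for all 41, with a median of -0.82, against -0.01 over all genes tested. The fall was at least 2-fold for 11 of the 41, against 1.29% of all genes tested. In 35 of the 41 every GR-cKO library lay below every control library, which held for 14.7% of all genes tested. Summed over the 41, the level was 1170, 1182 and 1131 CPM in the control libraries and 639, 651 and 670 CPM in the GR-cKO libraries. Each gene is set out by library in the plot of levels. The median coefficient of variation of a gene among the 3 libraries of a group was 11.9% in control and 10.5% in GR-cKO. With genes of the X and Y chromosomes left out, 32 of the remaining 40 fell. When libraries were scaled by their ERCC spike-in RNA instead, 30 of the 41 fell and none rose. That scaling moved the balance over all genes from 1097 higher and 1035 lower to 1355 higher and 522 lower, and their median log2 fold change from -0.01 to 0.09.

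**Figure D1:**
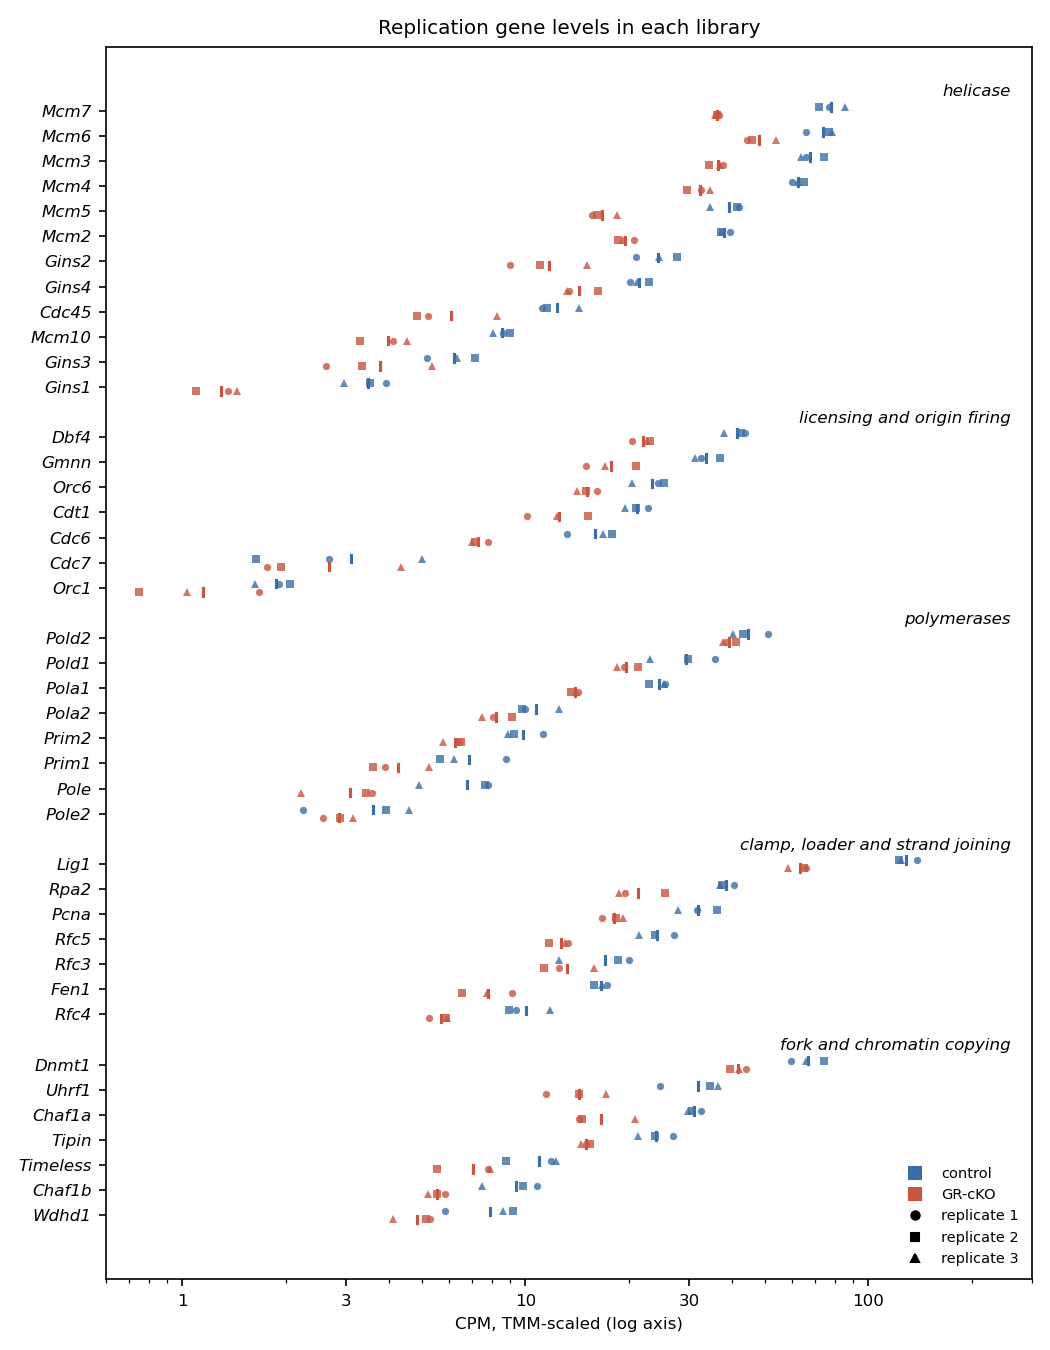
Level of each of the 41 genes in each of the 6 libraries, in CPM scaled by TMM factors on a log axis, by role; points are libraries (shape gives the replicate number), short vertical bars are group means. In 35 genes all 3 GR-cKO points lie to the left of all 3 control points, and the exceptions are Gins3, Orc1, Cdc7, Pold2, Pole2 and Rfc3.

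**Figure D2:**
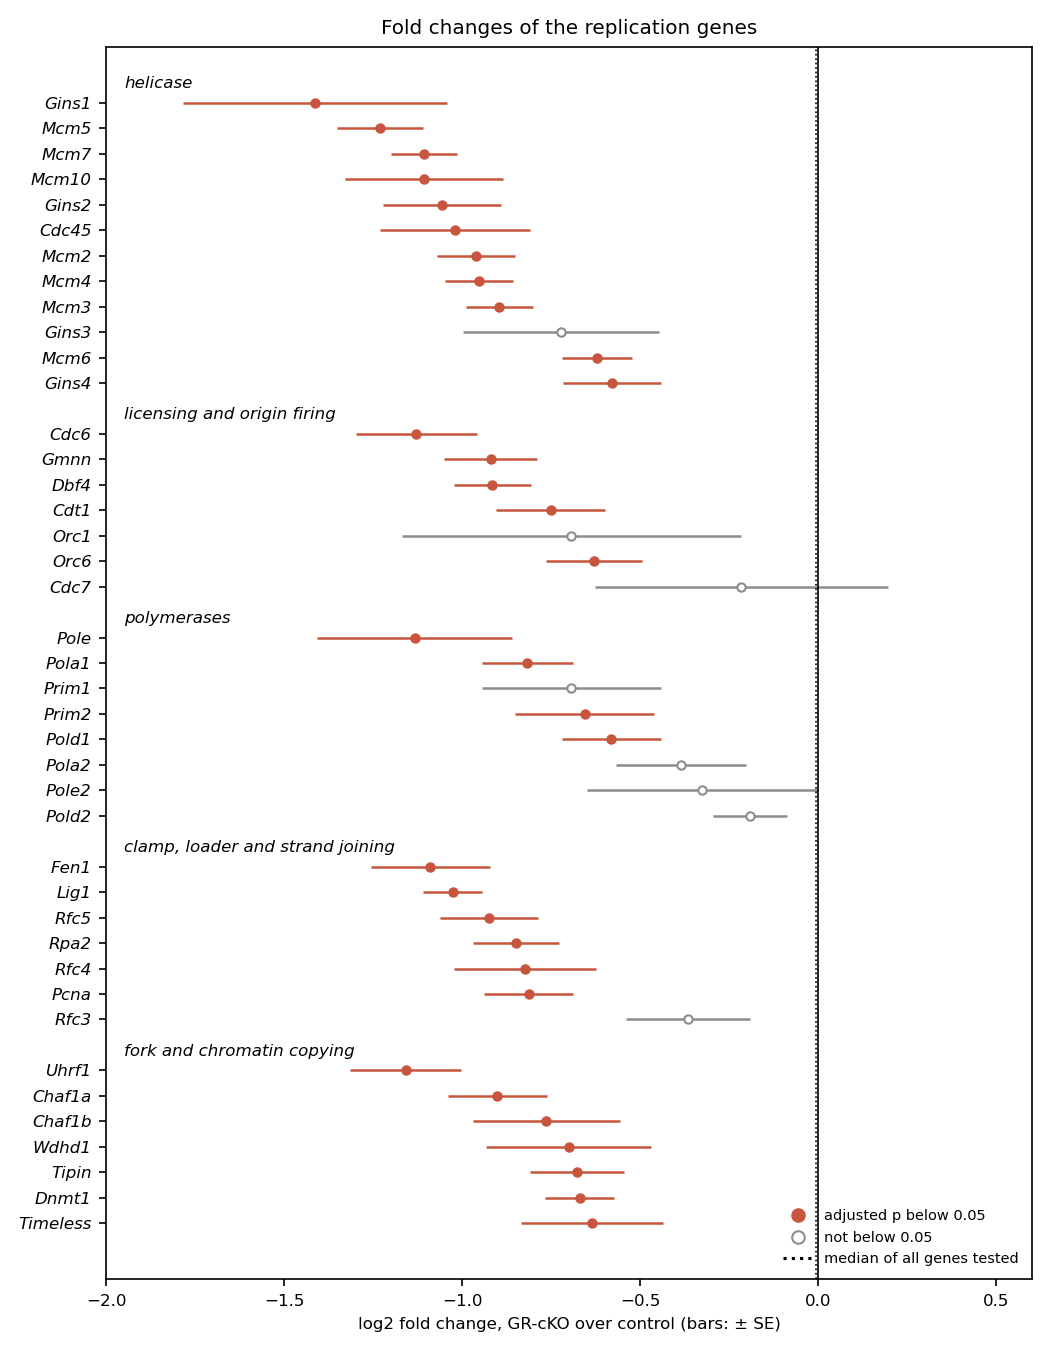
Fitted log2 fold change, GR-cKO over control, of the 41 genes by role, with bars of ± 1 SE; filled points passed an adjusted p of 0.05. All points lie below 0, from -1.41 for Gins1 to -0.19 for Pold2, and the dotted line marks the median of all genes tested.

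Since 33 of the 41 genes were called lower, the promoters that RefSeq gives for the 41 in GRCm38.p6 were searched for short motifs, from 250 bases before to 50 bases after each start, on both strands. A promoter was given for 33 of the 41 genes. The E2F motif was searched as TTTCCCGC, TTTGGCGC, TTTCGCGC and TTTGCCGC, whose matches can overlap each other. It was found for 15 of the 33 genes, or 45.5%, against 4.71% of 10423 tested genes with a promoter. The share was 44.0% of 25 genes called lower and 50% of the 8 not called, 31% of 42 other replication genes and 0 of 10 polymerase genes outside the fork. The CCAAT box, searched as CCAAT, was found for 57.6% of the 33 and 42.7% of tested genes. The cell-cycle homology element, searched as TTTGAA and TTCGAA, was found for 30.3% and 16.1%. Among the genes called lower the CCAAT box was found for 56% and the homology element for 24%. Among the 8 not called the shares were 62.5% and 50%. The palindromic glucocorticoid response element was found in none of the 33 and in 1 of the 10423. A form that rare would be missing from nearly any 33 genes, so this search could not show whether the 33 differ from other genes. It leaves out sites that are not palindromic and sites beyond the stretch searched. The motif matches given here are descriptions of letters and not of binding.

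The lines that follow give the 200 bases before the RefSeq start of 4 genes whose stretch lies outside every GENCODE gene, 5' to 3' on the strand of the gene, with E2F and CCAAT matches on either strand in capitals. Mcm5 (GRCm38.p6, chr8:75109309-75109508, plus strand) and Mcm6 (chr1:128359706-128359905, minus strand) are shown because they fell most and least in the ring, Pola1 (chrX:93632156-93632355, minus strand) for the X-linked member, and Mcm2 (chr6:88898781-88898980, minus strand) for a ring subunit without an E2F match.
Mcm5: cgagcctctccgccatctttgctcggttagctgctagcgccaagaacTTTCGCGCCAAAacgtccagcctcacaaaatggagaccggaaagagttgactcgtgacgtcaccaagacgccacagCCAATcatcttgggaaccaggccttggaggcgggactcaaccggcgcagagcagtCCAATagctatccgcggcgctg
Mcm6: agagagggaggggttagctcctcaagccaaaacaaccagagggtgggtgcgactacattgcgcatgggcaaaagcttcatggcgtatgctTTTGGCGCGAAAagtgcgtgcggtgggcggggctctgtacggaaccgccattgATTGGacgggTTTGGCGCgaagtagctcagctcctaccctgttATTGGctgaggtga
Pola1: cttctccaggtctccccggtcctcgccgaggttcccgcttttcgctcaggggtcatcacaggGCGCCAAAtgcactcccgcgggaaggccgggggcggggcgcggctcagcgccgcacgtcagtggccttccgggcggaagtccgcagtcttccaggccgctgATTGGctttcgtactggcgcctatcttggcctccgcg
Mcm2: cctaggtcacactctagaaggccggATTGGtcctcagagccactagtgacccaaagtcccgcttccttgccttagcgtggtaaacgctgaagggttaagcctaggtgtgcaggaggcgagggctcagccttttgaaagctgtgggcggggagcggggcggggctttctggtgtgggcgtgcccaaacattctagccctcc
Mcm5 holds 2 overlapping E2F matches and 2 CCAAT boxes in this stretch, Mcm6 holds 3 and 2, and Pola1 holds 1 of each. Mcm2 holds a single CCAAT box and none of the E2F letters.

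The helicase fell almost throughout. Of its 12 genes 11 fell, against 7.19% of all genes tested. The 12 log2 fold changes lay between -1.41 and -0.58, with a median of -0.99. The 6 subunits of the MCM2-7 ring, the motor that unwinds the parental strands, all fell. Mcm7 (GRCm38 chr5:138164583-138172422, minus strand) stood at 77.0, 72.0 and 85.2 CPM in the controls against 36.6, 36.3 and 35.7 CPM in GR-cKO, a log2 fold change of -1.11 ± 0.09 (SE; adjusted p = 4.07e-09). The GR-cKO libraries were nearly level with each other and all lay below every control. Mcm5 (chr8:75109569-75128439, plus strand), at 42.1, 41.5 and 34.5 CPM and then 15.7, 16.2 and 18.4 CPM, had the largest fall of the ring, -1.23 ± 0.12 (adjusted p = 6.69e-08). Mcm2 (39.6, 37.2 and 37.1 against 20.7, 18.6 and 19.2 CPM) fell by 0.96 on the log2 scale. Mcm4 (59.9, 65.1 and 62.4 against 32.5, 29.7 and 34.6 CPM) fell by 0.95 and Mcm3 (65.6, 74.0 and 63.5 against 37.8, 34.4 and 36.9 CPM) by 0.90. None of these 3 had groups that overlapped. Mcm6 (chr1:128331590-128359664, minus strand) fell least in the ring: it went from 66.0, 76.6 and 78.6 CPM to 44.2, 45.7 and 53.9 CPM, a log2 fold change of -0.62 ± 0.10 (adjusted p = 5.37e-05). The 95% interval of Mcm6, from -0.81 to -0.43, lies apart from that of Mcm5, from -1.47 to -0.996, and from that of Mcm7, from -1.29 to -0.93. These genes were compared because of the size of their falls, for which the intervals make no allowance, and the differences between their fold changes were not tested. In the promoters searched, Mcm6 held 3 E2F matches, Mcm3, Mcm5 and Mcm7 held 2 each and Mcm2 held none, while Mcm4 had no promoter given. A link between E2F matches and the size of the fall was not tested.

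Because each subunit enters the ring once, the make-up of the MCM counts was also read within each library, where no scaling between libraries enters. The 6 genes together took 7303, 7818 and 7317 counts in the control libraries and 4151, 3629 and 3860 counts in the GR-cKO libraries. The share of Mcm6 among them was 18.8%, 20.9% and 21.7% in control and 23.6%, 25.3% and 27.1% in GR-cKO, so that all 3 GR-cKO libraries lay above all 3 controls (20.5% ± 1.49 and 25.3% ± 1.78, SD, n = 3 each). The share of Mcm5 moved the other way, from 11.0% ± 1.27 to 8.86% ± 0.465 (n = 3 each), again without overlap. Both gave p = 0.1 by an exact permutation test, two-sided, the smallest that 3 libraries against 3 allow, and 0.3 after adjustment over the 6 subunits, so neither passes. Mcm7 had a share of 21.7% ± 1.98 and 19.2% ± 1.08 with overlapping libraries (exact p = 0.2, adjusted 0.4; n = 3 each). Mcm2, Mcm3 and Mcm4 had differences of 0.41 percentage points or less and an exact adjusted p of 0.8 each. The exact permutation test, whose smallest p here is 0.1, could not have called any of these shares.

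**Figure D3:**
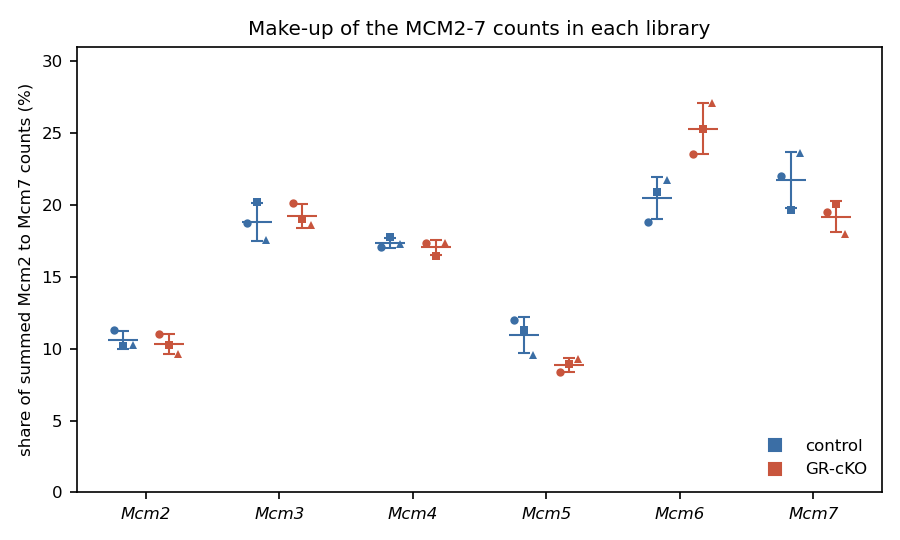
Share of each MCM2-7 subunit gene in the summed counts of the 6 genes, in percent, for each library; points are libraries, horizontal bars with whiskers are group means ± SD over 3 libraries. Mcm6 takes 18.8% to 21.7% in control and 23.6% to 27.1% in GR-cKO, and Mcm5 takes 9.55% to 12% in control and 8.36% to 9.28% in GR-cKO.

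The remaining helicase genes turn the loaded ring into a moving fork. Cdc45, which joins the ring when an origin fires, was at 11.2, 11.5 and 14.3 CPM in the controls against 5.20, 4.83 and 8.24 CPM in GR-cKO (log2 fold change -1.02 ± 0.21, adjusted p = 0.00113). Mcm10, a factor needed for the activated helicase to start moving, went from 8.63, 9.04 and 8.05 CPM to 4.11, 3.29 and 4.53 CPM (-1.11 ± 0.22). The groups were apart in both. Of the 4 GINS subunits, which hold Cdc45 to the ring, 3 fell. Gins1 had the largest fall of all 41 genes but few counts, 82, 75 and 60 in control and 30, 22 and 28 in GR-cKO (-1.41 ± 0.37, adjusted p = 0.00997), and without control replicate 1 its adjusted p was 0.0511. Gins2 (21, 27.6 and 24.5 against 9.04, 11.1 and 15.1 CPM) fell by 1.06 on the log2 scale and Gins4 (20.1, 22.9 and 21.1 against 13.4, 16.3 and 13.2 CPM) by 0.58. Gins3, at 5.18, 7.12 and 6.32 CPM and 2.62, 3.34 and 5.36 CPM, did not pass (-0.72 ± 0.28, adjusted p = 0.083). Its highest GR-cKO library, replicate 3, lay inside the control range, and without that library its log2 fold change was -1.05 with an adjusted p of 0.0153.

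Of 7 genes that license and fire origins, 5 fell, against 7.19% of all genes tested. The median log2 fold change of the 7 was -0.75. Cdc6 (chr11:98907801-98923940, plus strand), the ATPase that loads the MCM ring together with the origin recognition complex, fell furthest: from 13.2, 17.9 and 16.9 CPM to 7.77, 7.12 and 7 CPM (-1.13 ± 0.17, adjusted p = 3.32e-05). Its loading partner Cdt1 and the Cdt1 inhibitor geminin, encoded by Gmnn, both fell. Cdt1 was at 22.8, 21 and 19.6 CPM and then 10.1, 15.2 and 12.4 CPM (-0.75 ± 0.15), and Gmnn at 32.5, 36.8 and 31.3 CPM and then 15, 21.1 and 17.1 CPM (-0.92 ± 0.13). The ratio of Cdt1 to Gmnn counts was 0.702, 0.570 and 0.626 in the controls and 0.673, 0.721 and 0.723 in the GR-cKO libraries, with ranges that overlapped. An exact two-sided permutation test of this ratio gave p = 0.2 (n = 3 each). Its smallest possible p here is 0.1, so it could not have called a change in the ratio. Dbf4, the activating subunit of the Cdc7 kinase, fell from 43.8, 42.6 and 38.0 CPM to 20.4, 23 and 22.6 CPM (-0.92 ± 0.11, adjusted p = 1.39e-06). Its kinase partner Cdc7 showed no such separation, at 2.69, 1.64 and 4.99 CPM in the controls against 1.76, 1.94 and 4.33 CPM in GR-cKO (-0.22 ± 0.41, adjusted p = 0.811). Cdc7 had 35 to 101 counts a library, its highest library in each group was replicate 3, and its interval from -1.02 to 0.59 covers the fold change of Dbf4. Its fold change was 0.30 without control replicate 3 and 0.015 without GR-cKO replicate 1. Orc6, the smallest subunit of the origin recognition complex, went from 24.4, 25.4 and 20.5 CPM to 16.2, 15 and 14.1 CPM (-0.63 ± 0.13). Orc1, its largest subunit, had only 15 to 44 counts a library (-0.69 ± 0.48, adjusted p = 0.394), and its interval ran from -1.63 to 0.24.

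The polymerase genes were more mixed, with 4 of 8 called lower, against 7.19% of all genes tested. The median log2 fold change of the 8 was -0.62, and differences between the groups of genes were not tested. Pola1, the catalytic subunit of polymerase alpha, which lays down the first DNA of each strand, was at 25.5, 22.9 and 25.3 CPM in the controls against 14.2, 13.5 and 14.1 CPM in GR-cKO (-0.82 ± 0.13, adjusted p = 5.41e-05). It lies on the X chromosome (chrX:93304767-93632155, minus strand), and it is the sole X-linked gene of the 41. The other subunits of the alpha-primase complex were less certain. The primase genes Prim2 (11.3, 9.28 and 8.89 against 6.42, 6.48 and 5.77 CPM; -0.66 ± 0.19, adjusted p = 0.0228) and Prim1 (8.77, 5.62 and 6.17 against 3.89, 3.59 and 5.25 CPM; -0.69 ± 0.25, adjusted p = 0.0663) make the RNA primers. Prim2 lost its call without control replicate 1 (0.119) or without any of GR-cKO replicates 1 (0.0544), 2 (0.0529) and 3 (0.0691), while Prim1 passed without GR-cKO replicate 3 (0.0380). Pola2, the accessory subunit, was at 9.97, 9.75 and 12.5 CPM and 8.04, 9.17 and 7.47 CPM and did not pass (-0.39 ± 0.18, adjusted p = 0.182), although its groups were apart.

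For the polymerases that extend the strands, the catalytic subunits were called and the second subunits were not. Pole, the catalytic subunit of the leading-strand polymerase epsilon, fell from 7.77, 7.64 and 4.89 CPM to 3.57, 3.44 and 2.21 CPM (-1.13 ± 0.27, adjusted p = 0.00502). Its partner Pole2 was at 2.25, 3.94 and 4.59 CPM and 2.58, 2.89 and 3.14 CPM (-0.33 ± 0.32, adjusted p = 0.597), with groups that overlapped and 47 to 93 counts a library. Pold1, the catalytic subunit of the lagging-strand polymerase delta, went from 35.6, 29.8 and 23 CPM to 19.4, 21.3 and 18.4 CPM (-0.58 ± 0.14, adjusted p = 0.00489). Its adjusted p was 0.0574 without control replicate 1, the highest of them. Pold2, at 51.0, 43.0 and 40.2 CPM and 38.5, 41.1 and 37.7 CPM, had the smallest change of the 41 (-0.19 ± 0.10, adjusted p = 0.254). With 732 to 1063 counts a library it was among the deeper genes, and its interval from -0.40 to 0.01 shares only a short stretch with that of Pold1, from -0.85 to -0.31. The intervals of Pole, from -1.67 to -0.60, and of Pole2, from -0.96 to 0.31, share a longer stretch. The difference within these pairs was not tested.

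Of 7 genes for the sliding clamp, its loader, the single-strand binding protein and strand joining, 6 fell, against 7.19% of all genes tested. Pcna, the clamp that tethers the polymerases, was at 31.5, 36.2 and 27.9 CPM in the controls against 16.7, 18.4 and 19.3 CPM in GR-cKO (-0.81 ± 0.12, adjusted p = 4.24e-05). Lig1 (chr7:13277283-13311433, plus strand), the ligase that seals the lagging-strand fragments, had the most counts of the 41 genes, 2529 to 2883 in control and 1131 to 1458 in GR-cKO. Its levels were 138, 122 and 125 CPM and then 65.9, 65.0 and 58.3 CPM, a 2.04-fold fall (-1.03 ± 0.08, adjusted p = 2.53e-09). Fen1, the nuclease that trims each fragment before sealing, fell with it, from 17.4, 15.9 and 16.7 CPM to 9.17, 6.53 and 7.73 CPM (-1.09 ± 0.17). Rpa2, a subunit of the protein that coats single-stranded DNA, went from 40.6, 37.5 and 36.9 CPM to 19.6, 25.5 and 18.8 CPM (-0.85 ± 0.12). In none of these 4 did the groups overlap. In the clamp loader, Rfc5 fell from 27.1, 23.8 and 21.4 CPM to 13.3, 11.7 and 13.1 CPM (-0.93 ± 0.14). Rfc4 fell from 9.40, 8.95 and 11.8 CPM to 5.24, 5.88 and 5.92 CPM (-0.82 ± 0.20). Rfc3, at 20, 18.6 and 12.5 CPM and 12.6, 11.3 and 15.8 CPM, did not pass (-0.37 ± 0.17, adjusted p = 0.182). Its low control was replicate 3, and without that library Rfc3 passed, at -0.55 and an adjusted p of 0.0308.

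All 7 genes that act on the moving fork or on chromatin behind it fell, against 7.19% of all genes tested. The median log2 fold change of the 7 was -0.70. Uhrf1, which finds hemimethylated DNA after the fork has passed, had the largest change: 24.6, 34.5 and 36.5 CPM in the controls against 11.5, 14.3 and 17.2 CPM in GR-cKO (-1.16 ± 0.16, adjusted p = 7.35e-06). Dnmt1, the maintenance methyltransferase that Uhrf1 recruits, went from 59.6, 74.3 and 65.7 CPM to 43.9, 39.5 and 41.9 CPM (-0.67 ± 0.10, adjusted p = 1.86e-05). The intervals of these partners, from -1.46 to -0.85 and from -0.86 to -0.48, just meet. Chaf1a and Chaf1b encode the large subunits of CAF-1, which sets histones on new DNA. Chaf1a was at 32.6, 30.7 and 29.8 CPM and 14.4, 14.6 and 20.9 CPM (-0.90 ± 0.14), and Chaf1b at 10.8, 9.84 and 7.46 CPM and 5.83, 5.53 and 5.20 CPM (-0.76 ± 0.21, adjusted p = 0.0128, and 0.0773 and 0.0527 without control replicates 1 and 2). Tipin (26.9, 23.8 and 21.3 against 15, 15.4 and 14.5 CPM; -0.68 ± 0.13) and its partner Timeless (11.9, 8.76 and 12.3 against 7.77, 5.53 and 7.88 CPM; -0.64 ± 0.20, adjusted p = 0.0333) couple helicase and polymerase. Wdhd1, also known as And-1, links the helicase to polymerase alpha, at 5.85, 9.23 and 8.59 CPM and 5.29, 5.13 and 4.12 CPM (-0.70 ± 0.23, adjusted p = 0.0428). The calls of Timeless and Wdhd1 are the weakest of the 33. Wdhd1 lost its call without control replicates 2 (0.198) or 3 (0.118), without GR-cKO replicates 1 (0.0708), 2 (0.0830) or 3 (0.134), and by limma-trend (0.0508) and DESeq2 (0.0613). Timeless lost it without control replicates 1 (0.11) or 3 (0.118) and without GR-cKO replicates 1 (0.0511) or 2 (0.170), and both lost it, as did Prim2, with ERCC scaling.

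Several of these genes belong to complexes whose other subunits were listed separately, and these partner subunits are all named here, beyond the rule for named genes. Of 13 partner subunits 3 fell and none rose, against 7.19% and 7.63% of all genes tested, with a median log2 fold change of -0.15. In the origin recognition complex Orc6 was called, but Orc2 (-0.41 ± 0.16), Orc3 (0.30 ± 0.13), Orc4 (-0.08 ± 0.14) and Orc5 (0.03 ± 0.15) were not, and Orc3 was at 20.3, 18.9 and 16.1 CPM in the controls against 20.6, 23.1 and 24.2 CPM in GR-cKO. Orc2 passed without GR-cKO replicate 1 (adjusted p = 0.0109). In polymerase delta, Pold3 (-0.08 ± 0.18) and Pold4 (0.35 ± 0.14) were not called, although Pold4 was higher with ERCC scaling (adjusted p = 0.0347). In polymerase epsilon, the histone-fold subunit gene Pole3 fell from 66.4 ± 4.74 to 46.1 ± 4.14 CPM (n = 3 each; -0.53 ± 0.09, edgeR adjusted p = 0.000257), and Pole4 had a log2 fold change of -0.25 ± 0.09 (adjusted p = 0.0675). In the clamp loader, the shared subunit gene Rfc2 fell (-0.41 ± 0.10; adjusted p = 0.00846) and the large subunit gene Rfc1 was at -0.15 ± 0.09. Rfc2 lost its call without control replicate 2 (0.0677) or GR-cKO replicate 1 (0.0733) and with ERCC scaling (0.0662). Rpa1, the large subunit of the single-strand binding protein, fell by 0.51 on the log2 scale, and Rpa3, with 21 to 84 counts a library, was at -0.88 ± 0.39 (adjusted p = 0.153; 0.0476 without GR-cKO replicate 3). Rbbp4, the CAF-1 subunit that also serves other chromatin complexes, was at 147, 157 and 156 CPM and 132, 135 and 156 CPM (-0.12 ± 0.08).

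**Figure D4:**
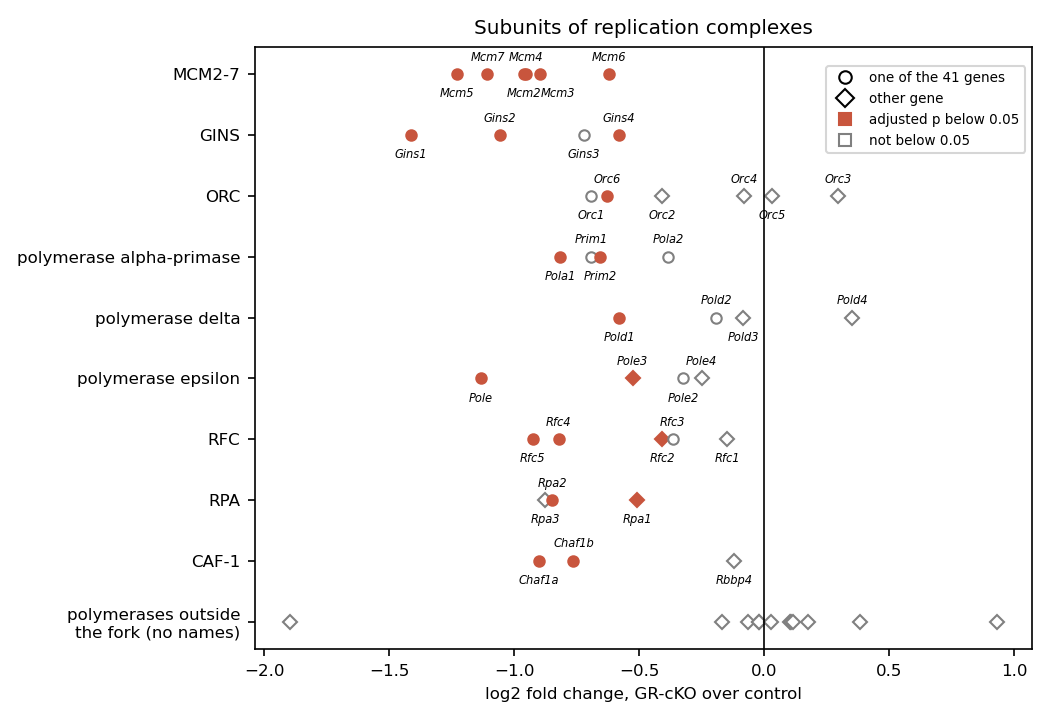
Fitted log2 fold change, GR-cKO over control, of every subunit of 9 replication complexes and, in the bottom row, of 12 polymerase genes that act outside the fork; circles are among the 41 genes, diamonds are other genes, and filled symbols passed an adjusted p of 0.05. All 6 MCM2-7 subunits are called lower, against 1 of 6 ORC subunits and 1 of 4 polymerase delta subunits.

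Other genes of the pathway also moved down. Of 50 listed genes 49 could be tested, Atrip being listed at 0 in all libraries, and 23 fell and none rose (edgeR; median log2 fold change -0.41). Of all genes tested 7.19% fell and 7.63% rose, and this list too was chosen with earlier results of these data known. At an unadjusted p below 0.05, 33 were lower and 2 higher, with no share of all genes counted at that level. Limma-trend and DESeq2 called 23 and 22 lower and none higher. With ERCC scaling 17 fell and 1, Pold4, rose. Among origin-firing genes 7 of 10 fell, with Ccne2 and Ccna2, cyclins of S-phase entry and progression, at -1.29 ± 0.20 and -0.995 ± 0.12, Ccne1 at -0.91 ± 0.16 and the scaffold gene Topbp1 at -0.76 ± 0.13. Cdk2, the kinase these cyclins activate, was at -0.29 ± 0.14 and Mtbp at -0.55 ± 0.26, neither called, but Cdk2 passed without control replicate 1 (adjusted p = 0.0340). Of the genes that destroy Cdt1, the adaptor genes Dtl (-1.05 ± 0.19) and Skp2 (-0.92 ± 0.15) fell, while the general ligase subunit genes Ddb1 (-0.15 ± 0.06) and Cul4a (-0.06 ± 0.11) were not called, though DESeq2 called Ddb1 (adjusted p = 0.0308).

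Around the clamp, the Pcna-binding factor gene Pclaf fell from 166, 165 and 172 CPM to 81.1, 70.3 and 73.1 CPM, a log2 fold change of -1.16 ± 0.08 (edgeR adjusted p = 9.93e-11). Dscc1, of an alternative clamp loader, was at -1.10 ± 0.32 (adjusted p = 0.0217; 0.0938, 0.0759 and 0.0572 without control replicate 3, GR-cKO replicate 1 and GR-cKO replicate 2). Atad5, which unloads the clamp, sat at the threshold (-0.77 ± 0.26, adjusted p = 0.0497) and lost its call under 9 of 14 alternatives, among them each library left out except GR-cKO replicate 2 (adjusted p from 0.0617 to 0.201 without each of the other 5). Chtf8 (-0.09 ± 0.08) and Chtf18 (-0.48 ± 0.27) were not called. The fork checkpoint genes Clspn (-1.35 ± 0.15) and Chek1 (-1.29 ± 0.24) fell, whereas the kinase gene Atr that acts above Chek1 was at 0.04 ± 0.20. Among genes for chromatin behind the fork 5 of 6 fell. The histone chaperone genes Asf1b (-1.40 ± 0.22) and Nasp (-0.72 ± 0.08), the chromatin remodeller gene Hells (-1.05 ± 0.13) and Ssrp1 (-0.32 ± 0.07) were among these, and Asf1a, the paralogue of Asf1b, was at -0.17 ± 0.14. Ssrp1 lost its call with ERCC scaling (adjusted p = 0.117). In strand processing Rnaseh2c fell (-0.40 ± 0.09; adjusted p = 0.0768 with ERCC scaling), and Top1 (-0.19 ± 0.07) and Rnaseh2a (-0.03 ± 0.14) were not called, with Top1 passing without control replicate 3 (adjusted p = 0.0420). None of the 3 helicase relatives was called, Mcmbp being at -0.25 ± 0.10 (0.0478 without GR-cKO replicate 3) and Mcm9 at 0.26 ± 0.20.

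DNA polymerases that work outside the fork, in repair, damage bypass or mitochondria, gave a further comparison. Of 14 listed 12 could be tested and none was called by edgeR, with a median log2 fold change of 0.06 and a summed level over all 14 of 159, 167 and 166 CPM in the controls against 172, 171 and 176 CPM in GR-cKO. Over all genes tested 7.19% fell and 7.63% rose past the adjusted threshold. At an unadjusted p below 0.05, 2 were higher and 1 lower, again with no share of all genes counted. DESeq2 called none, and limma-trend called 1 higher and 1 lower. The bypass polymerase gene Poli was at 1.49, 2.53 and 3.85 CPM and 4.70, 4.78 and 5.51 CPM (0.93 ± 0.32, adjusted p = 0.0520). It passed by limma-trend (0.0320), with ERCC scaling (0.0398), with no low-count filter (0.0262) and without control replicate 3 (0.0111). The end-joining polymerase gene Polq was at 1.53, 2.62 and 1.43 CPM and 0, 1.10 and 0.412 CPM (-1.90 ± 0.71, adjusted p = 0.0774), and it passed by limma-trend (0.0236), with no low-count filter (0.0143) and without GR-cKO replicate 2 (0.0225). Polk was at 0.38 ± 0.16 (adjusted p = 0.127).

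Where the last exon of a gene overlaps another gene, 3' tags could have gone to either, since no source used here states the strand setting of the counting. This concerned Chaf1a (Ubxn6), Fen1 (Gm10143), Gins2 (Gse1), Mcm7 (Cops6), Rfc4 (Eif4a2) and Rfc5 (Wsb2), in each case with a gene on the opposite strand. The 5 of these neighbours that could be tested had log2 fold changes between -0.16 and 0.32, none called: Gse1 was at -0.16 ± 0.13, Wsb2 at -0.08 ± 0.08, Cops6 at -0.08 ± 0.07, Ubxn6 at 0.13 ± 0.08 and Eif4a2 at 0.32 ± 0.12. Gm10143 had at most 6 counts in a library. The annotated pseudogenes of Pcna took at most 13 counts in a library.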

How the data were processed

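Messenger RNA of 3 control and 3 GR-cKO libraries was read with QuantSeq 3' tags (forward kit, 100 ng of total RNA), which mark the 3' end of each transcript, so a level does not scale with gene length. The authors deposited raw counts per gene in a table for each library. The build GRCm38 and the tools STAR 2.5.4a and featureCounts 1.6.2 (with DESeq2 1.18.1, cutadapt 1.16, bcl2fastq, MultiQC 1.5 and FastQC 0.11.7) are named per the submitters' processing notes. For strand and multi-mapping, the setting is not given in the sources used here. Each table held 52550 Ensembl rows, 92 ERCC rows and 7 SIRV rows. The spike-ins, 1.98% to 2.36% of counts, stayed out of library sizes and tests.

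Identifiers were matched to GENCODE M21, and 52403 had a symbol. GR-cKO was tested against control with edgeR 4.0.16 (quasi-likelihood, TMM, default filter, R 4.3.3), with Benjamini-Hochberg adjustment over 14386 genes and a threshold of 0.05. SE is the log2 fold change over the square root of F, and CPM values carry TMM factors. The 95% intervals apply normal quantiles to that SE. The fit was tested on simulated data. A count of 0 allows up to 0.133 to 0.155 CPM, taken as 3 counts, for counting error only. Within groups, library pairs differed beyond counting noise (median chi-square 2.49 to 3.71 per gene). Alternatives were other scalings, filters, tests (limma 3.58.1, DESeq2 1.42.0), the replicate block, no X and Y genes, and each library left out.

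The members and lists were chosen with earlier results of these data known. All 41 members are named. Of the other replication genes the rule took, per subgroup, up to 4 called genes by smallest p and 2 uncalled by highest CPM, and of the outside polymerases 3 by smallest p. Marker genes and partner subunits beyond this, and overlapping neighbours, were chosen after their values were seen.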

Additional observations from a re-analysis of the deposited data

How the results depend on the processing

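Of the 33 replication genes called lower, 27 kept that call under all alternatives that gave them a value, and 6 (Gins1, Prim2, Pold1, Timeless, Wdhd1, Chaf1b) lost it under at least 1. The count of members lower was 33 with DESeq2's size factors in edgeR and with no low-count filter, 32 of 37 with at least 5 CPM in 3 libraries, 32 without X and Y genes (Pola1 not among them), 32 with limma-trend and with DESeq2, 30 with ERCC scaling, and 28 to 33 with a library left out. Over all genes 1572 to 1879 passed with a library left out, and 20 to 22 of the other replication genes fell. With the replicate block 34 members fell, 25 other replication genes fell and 2353 genes passed. With it Gins3 (adjusted p = 0.0406), Orc2, Poli and Polq also passed. Deviations of same-numbered libraries correlated at 0, 0.037 and 0.02, and those of unlike numbers at -0.055 to 0.032. The labels do not say whether equal numbers mark a pairing, and these correlations show no sign of one but cannot exclude it. The difference in the share of Mcm6 ranged from 3.92 to 5.7 percentage points over the libraries left out. Directions reversed for Cdc7, whose log2 fold change ranged from -0.74 to 0.30 over the alternatives, and for genes near 0. With ERCC scaling Orc4 was at 0.013, Pold3 at 0.014, Cul4a at 0.030, Chtf8 at 0.0064 and Rnaseh2a at 0.065. With a library left out Orc4 ranged from -0.17 to 0.036, Orc5 from -0.089 to 0.14, Pold3 from -0.21 to 0.00026, Cul4a from -0.17 to 0.031, Rnaseh2a from -0.14 to 0.075 and Atr from -0.12 to 0.16. The cause of these changes was not tested. Orc1, Cdc7, Pole2, Gins1 and Rpa3 had at most 101 counts in any library, and the part of depth in their errors was not tested.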
